A study of Mus musculus with 6 samples.

Results

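The genes of cholesterol synthesis and of its control by SREBP2 were examined in liver F4/80-positive cells of mice with a myeloid deletion of Lpcat3. The set was fixed by name as 27 gene symbols, which were looked up in the GENCODE M21 annotation, and all 27 were found among the 49315 genes listed and among the 16134 genes that had enough counts to be tested. The rule names genes and uses no expression value. RNA was sequenced from 3 WT and 3 Lpcat3KOMac mice, with 1 library per mouse. Lpcat3KOMac mice were Lpcat3 fl/fl animals that carried LysM Cre/+, and WT mice were their Lpcat3 fl/fl littermates with LysM +/+, so that both genotypes carried the floxed alleles and differed in the Cre. In this model the Cre is expressed from the LysM (Lyz2) locus, which is active in myeloid cells. All mice were on a C57BL/6N background and received an HFD with 60% fat for 16 weeks, begun at 8 to 12 weeks of age. The study used males and females, and the labels do not give the sex of each mouse. Cells were collected after collagenase perfusion of the liver and a slow spin against hepatocytes, by magnetic sorting with beads against F4/80.

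Cholesterol is built from acetyl-CoA, first along the mevalonate arm up to farnesyl diphosphate, and then along the sterol arm from squalene to cholesterol. The genes of both arms are transcribed under SREBP2, a membrane-bound factor encoded by Srebf2. When sterols are low in the endoplasmic reticulum, SCAP escorts SREBP2 to the Golgi for cleavage, and when sterols are plentiful the INSIG proteins hold SCAP and its cargo back. Macrophages take up much of their cholesterol by engulfing cells and lipoproteins, and NPC1 and NPC2 carry it out of the lysosome, whereas hepatocytes both make cholesterol and take it up.

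SREBP2 binds sterol regulatory elements next to sites of the factor NF-Y, and Srebf2 is a target of its own product. The 250 bases before the RefSeq start (GRCm38.p6) are shown for the 3 members whose promoter window held the 8-base element TCACNCCA. They are written from 5′ to 3′ on the strand of the gene, with every TCACNCCA and CCAAT, on either strand, in capitals. The stretch of Srebf2, which encodes SREBP2, is chr15:82147019-82147268, plus strand. That of Hmgcs1, which encodes the cytosolic HMG-CoA synthase, is chr13:119690101-119690350, plus strand. That of Msmo1, a methylsterol oxidase of the sterol arm, is chr8:64733579-64733828, minus strand.
Srebf2: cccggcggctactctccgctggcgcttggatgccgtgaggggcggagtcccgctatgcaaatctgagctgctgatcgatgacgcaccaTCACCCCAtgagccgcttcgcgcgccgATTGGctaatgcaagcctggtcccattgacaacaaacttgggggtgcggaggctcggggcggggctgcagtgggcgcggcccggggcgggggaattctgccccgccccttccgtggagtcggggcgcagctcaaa
Hmgcs1: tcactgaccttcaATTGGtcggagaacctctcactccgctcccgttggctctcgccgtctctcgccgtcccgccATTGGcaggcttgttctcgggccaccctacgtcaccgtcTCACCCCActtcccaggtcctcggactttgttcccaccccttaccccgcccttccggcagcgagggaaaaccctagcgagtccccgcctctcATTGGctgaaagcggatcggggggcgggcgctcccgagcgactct
Msmo1: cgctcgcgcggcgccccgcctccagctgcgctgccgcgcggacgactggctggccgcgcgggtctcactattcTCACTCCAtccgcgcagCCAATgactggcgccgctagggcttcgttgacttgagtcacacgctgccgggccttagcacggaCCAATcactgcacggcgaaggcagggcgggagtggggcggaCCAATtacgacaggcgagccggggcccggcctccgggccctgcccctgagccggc
The element began at -162 in Srebf2, at -137 in Hmgcs1 and at -177 in Msmo1, counted from the start, and each time on the strand of the gene. In Srebf2 a CCAAT on the other strand began at -135. Windows of 300 bases, 250 before and 50 after the start, were listed for 22 of the 27 members, and a gene was counted if any of its windows held a motif. TCACNCCA was found in 3 of these 22 genes (13.6%), as compared with 4.62% of the 11354 tested genes that had a window. CCAAT, which was searched on its own and could overlap the end of the other motif, was found in 20 of 22 members (90.9%) and in 42.5% of the tested genes. Both motifs in 1 window were found in the same 3 members and in 1.76% of the tested genes. These letter matches describe the windows only, and no binding was measured.

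Total counts lay between 44954224 and 71392812 per library, and no library was a copy of another. Levels are given as CPM, counts scaled to a fixed library total after TMM scaling of the libraries. Lpcat3, the targeted gene, had 85.0, 66.2 and 61.2 CPM in the WT libraries, listed here and throughout from mouse 1 to mouse 3, and 19.5, 33.3 and 19.4 CPM in the Lpcat3KOMac libraries. It was thus lower in every Lpcat3KOMac mouse, with a log2 fold change of -1.56 (SE 0.26, n = 3 and 3), but its edgeR adjusted p rounded to 1, and 12.5% of its exonic length is shared with Emg1 on the other strand. The 5 Kupffer cell markers were abundant in all libraries, with summed levels of 23862 to 30847 CPM in WT and 18716 to 24369 CPM in Lpcat3KOMac mice. All 5 had a log2 fold change below 0, with a median of -0.24. Clec4f was lower in Lpcat3KOMac mice at an unadjusted p of the edgeR fit under 0.05, against 1.57% of all genes tested. The 6 hepatocyte markers were also present, with summed levels of 1783 to 21370 CPM in WT and 4502 to 12765 CPM in Lpcat3KOMac mice, and none of the 6 was at 0. Markers of sinusoidal endothelium (795 to 909 CPM in WT and 880 to 1063 CPM in Lpcat3KOMac mice), stellate cells (82.9 to 195 and 146 to 257 CPM), monocytes and neutrophils (19.7 to 95.5 and 57.2 to 75.1 CPM) and lymphoid cells (2.85 to 5.05 and 3.65 to 4.86 CPM) were lower. Of these 19 genes, Kdr and S100a8 were higher in Lpcat3KOMac mice at an unadjusted p under 0.05 by edgeR, against 1.07% of all genes tested. The groups overlapped for Kdr. Of the 5 endothelial markers, 4 had a log2 fold change above 0, and Pecam1 was at -0.24. S100a8 was scarce, at 0.72 to 0.87 CPM in WT and 0.95 to 2.19 CPM in Lpcat3KOMac mice. Alb, which encodes albumin, had 13054, 1205 and 1319 CPM in the WT libraries and 3131, 9289 and 3138 CPM in the Lpcat3KOMac libraries. WT mouse 1 and Lpcat3KOMac mouse 2 thus stood apart from the other 4 libraries in Alb. The part of hepatocyte RNA in the results was not tested beyond the fits given below, and fewer cells of a type and less RNA per cell cannot be told apart in such bulk samples.

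No genotype difference in the pathway passed the test across all genes. No member, and no gene of all those tested (0%), passed an adjusted p of 0.05 in edgeR, and the smallest adjusted p of any member was above 0.99. That test did not call the targeted gene Lpcat3 either, so it leaves room for differences in the members. DESeq2, another count test, called 12 genes and gave Srebf2 an adjusted p of 0.401. The paper names Lpcat3 and Lyz2 among the few genes that differed between genotypes. In edgeR, Srebf2 was the one member at an unadjusted p under 0.05, and it was higher in Lpcat3KOMac cells. Of all genes tested, 1.07% were higher and 1.57% were lower at that threshold. The log2 fold changes of the 27 members had a median of 0.09, with 18 above 0, as compared with a median of -0.04 over all genes tested. The number above 0 was 24 with total counts in place of TMM and lay between 9 (without WT mouse 3) and 24 (without WT mouse 1) when single mice were left out. In 23 of the 27 members the log2 fold change was within 1 standard error of 0. Levels of the 3 WT and the 3 Lpcat3KOMac mice did not overlap for 2 members: Srebf2 was higher and Npc2 was lower in every Lpcat3KOMac mouse. This kind of separation was seen upwards in 2.29% and downwards in 5.2% of all genes tested.

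**Figure D1:**
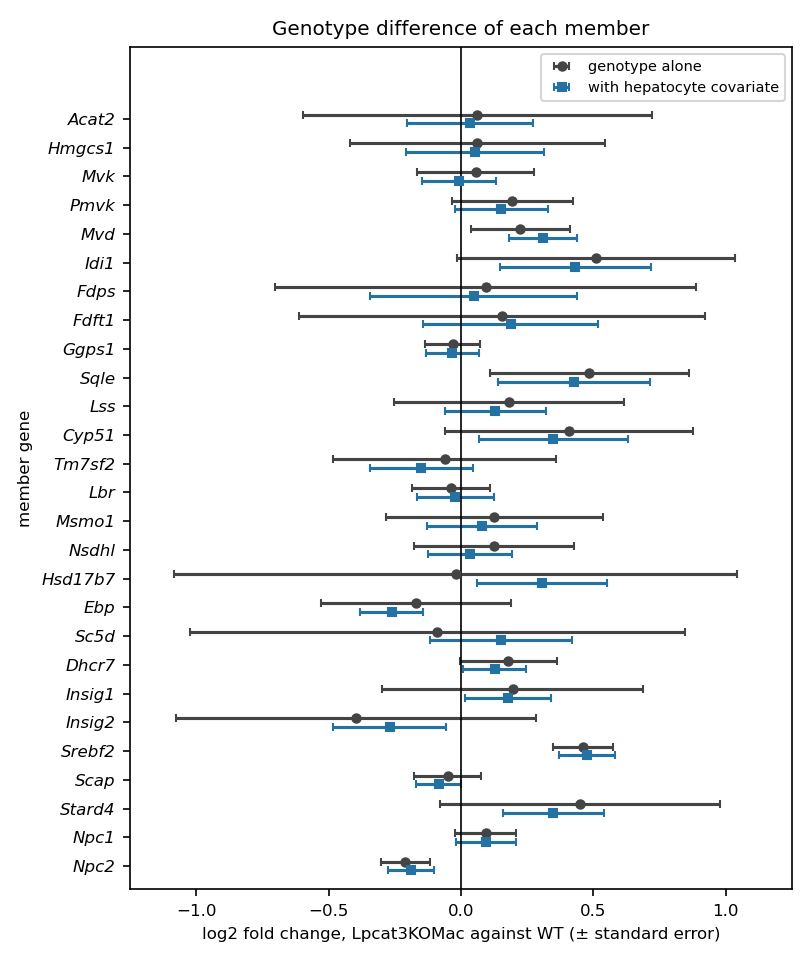
Log2 fold change of each of the 27 members in Lpcat3KOMac against WT cells (horizontal axis), with its standard error, from the fit with genotype alone (grey circles) and from the fit that also held the mean of 6 hepatocyte transcripts (blue squares). Srebf2 is at 0.46 and 0.48 in these fits, and the error bars of most other members reach 0 with genotype alone.

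As a group, the members varied more between mice of a genotype than between genotypes, and the order of the libraries was that of the hepatocyte transcript Alb. The mean of the 27 members was 5.37, 4.21 and 4.30 log2 CPM in WT mice 1 to 3 and 4.54, 5.17 and 4.91 log2 CPM in Lpcat3KOMac mice 1 to 3. WT mouse 1, the highest library, was 2.23 times above WT mouse 2, the lowest, which differed little from WT mouse 3. The genotype means were 4.63 ± 0.64 log2 CPM in WT and 4.87 ± 0.32 log2 CPM in Lpcat3KOMac cells (SD, n = 3 each), so the 0.25 between them was smaller than the spread among WT mice.

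The 6 libraries had the same order by the mean of the members as by Alb (Spearman rho = 1, exact two-sided permutation p = 0.00278, 0.00556 adjusted over 2 relations; Pearson r = 0.967, exact permutation p = 0.00139, adjusted 0.00278). Part of this order rests on Lpcat3KOMac mice 1 and 3, whose Alb levels were nearly equal. With the mean of the 6 hepatocyte transcripts in place of Alb, r was 0.927 (exact permutation p = 0.00972) and rho was 0.886 (exact permutation p = 0.0333). Without the 2 libraries farthest from the median on each scale, r was 0.874 for Alb (WT mouse 1 and Lpcat3KOMac mouse 2 left out) and 0.869 for the hepatocyte mean (WT mice 1 and 3 left out). Within genotype, r with Alb was 0.999 over the WT mice and 0.812 over the Lpcat3KOMac mice, and r with the hepatocyte mean was 0.981 and 0.651, values that rest on 3 libraries each. When WT mouse 1 alone was left out, r with the hepatocyte mean was 0.877 over 5 libraries (exact permutation p = 0.0667).

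**Figure D2:**
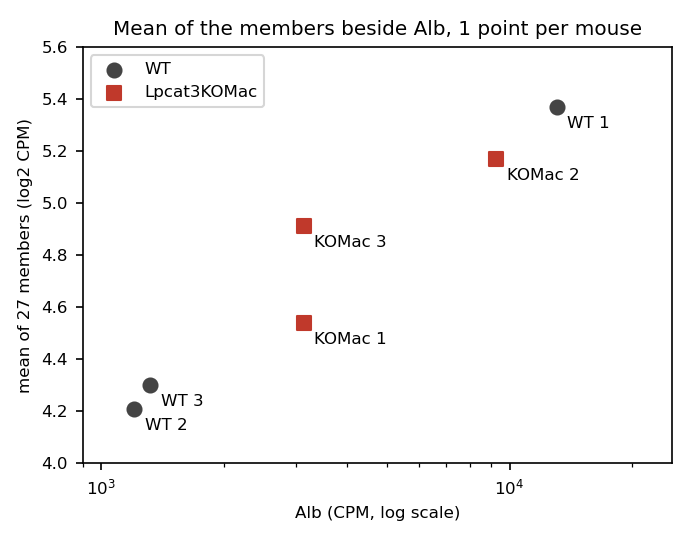
Mean log2 CPM of the 27 members (vertical axis) against the CPM of Alb on a log axis, with 1 point for each of the 6 mice (grey circles, WT; red squares, Lpcat3KOMac). The mean rises with Alb from 4.21 in WT mouse 2 to 5.37 in WT mouse 1, and the Lpcat3KOMac mice lie between the WT mice.

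In a fit of all tested genes on genotype and on the mean log2 CPM of the 6 hepatocyte transcripts, 15 of the 27 members rose with that mean at an adjusted p under 0.05 (edgeR), against 15.3% of all genes tested, and none of the 27 fell with it, against 7.33%. The most negative slope was that of Mvd, the decarboxylase that makes isopentenyl diphosphate (-0.13, SE 0.05, adjusted p = 0.117 by edgeR). The median slope of the members was 0.31 log2 units per log2 unit of the hepatocyte mean, and that of all genes was -0.01. The 15 members had slopes of 0.23 to 0.91, and their highest and lowest libraries differed by 1.81 to 11.5 times. The other 12 members had slopes of -0.13 to 0.33, and their libraries differed by 1.19 to 2.86 times. The count of 15 rests on WT mouse 1: without it, no member passed at an adjusted p of 0.05 and the share of all genes was 1.13%, while 20 of 27 slopes were above 0 with a median of 0.19. Without WT mouse 2 the count was 7, against 12.6% of all genes, and the median was 0.28. This readout was chosen after the data were seen.

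**Figure D3:**
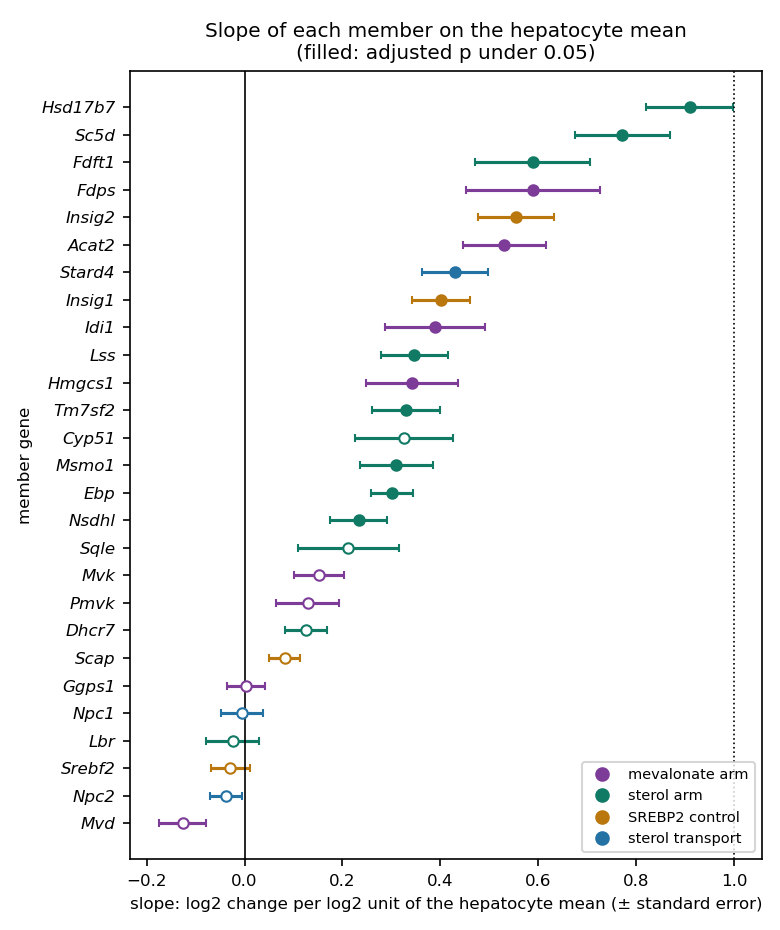
Slope of each member on the mean of the 6 hepatocyte transcripts, in log2 units per log2 unit with its standard error, coloured by role; filled points have an adjusted p under 0.05 and the dotted line marks a slope of 1. The slopes run from 0.91 for Hsd17b7 down to -0.13 for Mvd, and every role has points on both sides of 0.2.

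Across the libraries, 16 of the 27 members were highest in WT mouse 1, and in 16 members WT mouse 1 and Lpcat3KOMac mouse 2 were the 2 highest libraries. The lowest library was WT mouse 2 or WT mouse 3 for 22 members. The log2 CPM of 16 members had an r above 0.9 with the mean of the other members over the 6 libraries, and 5 members had an r below 0. When each library was set against the mean of its own genotype, 17 members had an r above 0.9. These correlations share their libraries and are given as a description.

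**Figure D4:**
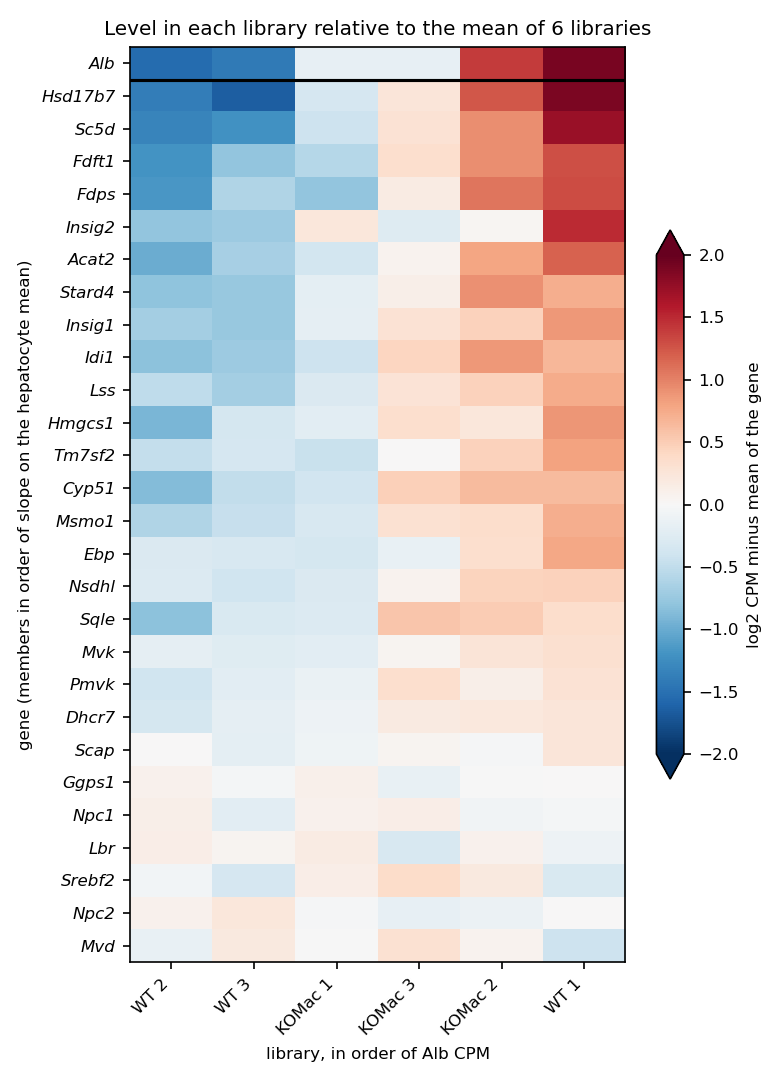
Log2 CPM of each member in each library minus the mean of that gene over 6 libraries (colour, red above and blue below the mean), with the libraries from left to right in order of Alb, which is the top row. The members near the top, such as Hsd17b7 and Sc5d, turn from blue to red along with Alb, and the members at the bottom, such as Npc2 and Mvd, do not.

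The mevalonate arm held 8 members, of which 7 had a log2 fold change above 0, with a median of 0.08 and none at an unadjusted p under 0.05. Hmgcs1 condenses acetoacetyl-CoA with acetyl-CoA to HMG-CoA. Its level was 114, 32.7 and 48.4 CPM in WT and 53.4, 72.2 and 77.7 CPM in Lpcat3KOMac mice. The Lpcat3KOMac mice lay within the range of the WT mice, and the log2 fold change was 0.06 (SE 0.48). Acat2, the cytosolic thiolase that makes acetoacetyl-CoA, was highest in WT mouse 1, at 26.2 CPM, and lowest in WT mouse 2, at 5.85 CPM. Its reads may be shared with the near-identical Acat3, so its level is uncertain. Fdps, farnesyl diphosphate synthase, was at 45.5, 8.17 and 12.1 CPM in WT and at 10.7, 38.8 and 20.7 CPM in Lpcat3KOMac mice. Idi1, the isomerase before it, had a log2 fold change of 0.51 (SE 0.52), which was 0.20 without Lpcat3KOMac mouse 2 and 1.16 without WT mouse 1, with levels of 11.3, 4.05 and 4.33 CPM in WT and 5.36, 13.1 and 9.60 CPM in Lpcat3KOMac mice. These 4 genes rose with the hepatocyte mean, with slopes of 0.34 to 0.59. Mvk, mevalonate kinase, and Pmvk, phosphomevalonate kinase, had slopes of 0.15 and 0.13, and neither passed the threshold of adjusted p. Ggps1 leads away from sterols to geranylgeranyl diphosphate, and it was the most even member, at 19.5, 20.7 and 19.0 CPM in WT and 20.99, 19.4 and 17.6 CPM in Lpcat3KOMac mice. Its highest and lowest libraries differed by 1.19 times, and its log2 fold change was -0.03 (SE 0.10).

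The sterol arm held 12 members, of which 7 had a log2 fold change above 0, with a median of 0.12 and none at an unadjusted p under 0.05. Hsd17b7, a ketoreductase in the removal of sterol methyl groups, varied the most of all members. It was at 24.4, 2.56 and 2.12 CPM in WT and at 5.25, 15.7 and 7.84 CPM in Lpcat3KOMac mice. The highest library was 11.5 times above the lowest, both of them WT, and the slope on the hepatocyte mean was 0.91 (SE 0.09, adjusted p = 0.00115 by edgeR). Sc5d, the desaturase of the late sterol ring, was at 179, 21.8 and 23.5 CPM in WT and at 40.7, 104 and 66.4 CPM in Lpcat3KOMac mice, with a slope of 0.77 (SE 0.10). Fdft1, squalene synthase, was at 27.3, 4.91 and 6.50 CPM in WT and at 7.59, 21.4 and 14.2 CPM in Lpcat3KOMac mice. It shares 26.8% of its exonic length with Ctsb on the other strand, a gene with up to 771091 counts in a library, and as the strand setting is not given in the sources used here, its level is uncertain. These 3 genes had WT mouse 1 and Lpcat3KOMac mouse 2 as their highest libraries, and their genotype groups overlapped.

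Lss, Tm7sf2, Msmo1, Ebp and Nsdhl, which act between squalene epoxide and the late sterols, also rose with the hepatocyte mean, with slopes of 0.23 to 0.35. Msmo1 was at 41.5, 16.6 and 18.3 CPM in WT and at 20.04, 32.1 and 31.2 CPM in Lpcat3KOMac mice, again with the highest level in WT mouse 1. Tm7sf2 shares 51.0% of its exonic length with Vps51 on the same strand, so its reads may have been split. Sqle, which epoxidizes squalene, was at 9.79, 4.31 and 6.17 CPM in WT and at 6.32, 10.8 and 11.2 CPM in Lpcat3KOMac mice, with a log2 fold change of 0.48 (SE 0.37, edgeR adjusted p rounding to 1). Cyp51, the lanosterol demethylase, had a log2 fold change of 0.41 (SE 0.47). Its slope of 0.33 was as steep as those of other members of the arm but had an adjusted p of 0.068 by edgeR. Lbr, a sterol reductase that is also a lamin receptor of the nuclear envelope, was at 44.2, 51.8 and 49.0 CPM in WT and at 52.8, 50.3 and 38.1 CPM in Lpcat3KOMac mice, with a slope of -0.02 (SE 0.05). Dhcr7, the last reductase before cholesterol, was at 34.2, 22.6 and 25.6 CPM in WT and at 26.9, 33.6 and 32.8 CPM in Lpcat3KOMac mice, with a slope of 0.12 (SE 0.04, edgeR adjusted p = 0.093).

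Of the 4 members that control SREBP2, Srebf2 was the one whose mice separated by genotype. Srebf2 (ENSMUSG00000022463, chr15:82147266-82205376, plus strand) had 57.7, 68.5 and 56.7 CPM in the WT libraries and 78.0, 82.0 and 91.6 CPM in the Lpcat3KOMac libraries. Every Lpcat3KOMac mouse was above every WT mouse, which was seen in 2.29% of all genes tested. The log2 fold change was 0.46 (SE 0.11), with an edgeR unadjusted p of 0.0067 and an adjusted p that rounded to 1 over the genes tested. The exact two-sided permutation test over mice gave p = 0.1, the smallest value that 3 mice against 3 allow. Its slope on the hepatocyte mean was -0.03 (SE 0.04), and with that mean in the fit its log2 fold change was 0.48 (SE 0.11, edgeR unadjusted p = 0.0043, adjusted 0.525). Over the 15 alternative fits the log2 fold change lay between 0.41 and 0.55, with edgeR or DESeq2 unadjusted p-values of 0.0014 to 0.027 and adjusted p-values of 0.297 to 1.

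The other members of this group had no such separation. Insig1, itself a target of SREBP2, was at 130, 44.7 and 42.5 CPM in WT and at 63.4, 97.96 and 87.1 CPM in Lpcat3KOMac mice. WT mouse 1 was above and the other WT mice below all Lpcat3KOMac mice, and the log2 fold change was 0.19 (SE 0.49). Insig2, whose liver transcript is known to fall with insulin, was at 158, 32.5 and 33.7 CPM in WT and at 65.5, 57.7 and 47.0 CPM in Lpcat3KOMac mice, with the same layout and a log2 fold change of -0.40 (SE 0.68). Both rose with the hepatocyte mean, with slopes of 0.40 for Insig1 and 0.56 for Insig2. Scap was even, at 73.4, 62.4 and 54.4 CPM in WT and 58.4, 61.0 and 64.3 CPM in Lpcat3KOMac mice, and its log2 fold change was -0.05 (SE 0.13). Of its exonic length, 13.2% is shared with 5830462I19Rik on the other strand, which had at most 50 counts in a library.

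**Figure D5:**
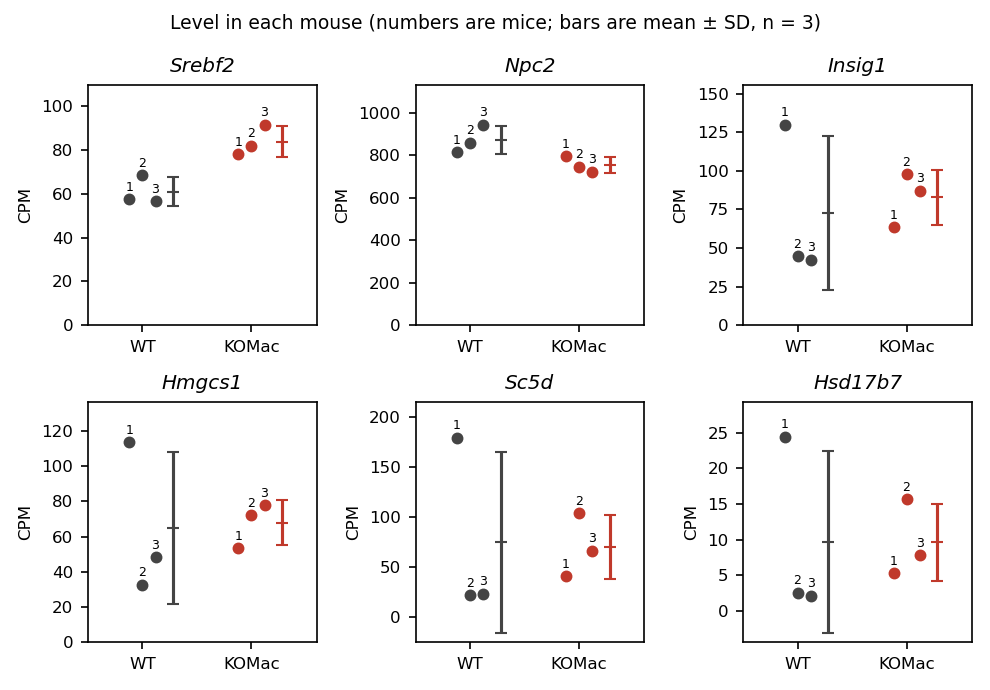
CPM of 6 members in each mouse (points, numbered by mouse; grey, WT; red, Lpcat3KOMac), with the mean and SD of the 3 mice beside them. The groups do not overlap for Srebf2 (57.7, 68.5 and 56.7 against 78.0, 82.0 and 91.6) and Npc2. Of all genes tested, 2.29% separated upwards and 5.2% downwards in this way. In Insig1, Hmgcs1, Sc5d and Hsd17b7, WT mouse 1 is the highest and WT mouse 2 or 3 the lowest point.

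Sterol transport held 3 members, and Npc2 was the other member whose mice separated by genotype. Npc2, the soluble sterol carrier of the lysosome (ENSMUSG00000021242, chr12:84754560-84773112, minus strand), was at 816, 861 and 945 CPM in WT and at 795, 746 and 724 CPM in Lpcat3KOMac mice. Every Lpcat3KOMac mouse was below every WT mouse, with 795 against 816 CPM as the nearest pair. Such a separation downwards was seen in 5.2% of all genes tested. The log2 fold change of Npc2 was -0.21 (SE 0.09), with an edgeR unadjusted p of 0.065 and an adjusted p that rounded to 1. The 5 Kupffer cell markers, all below 0, had a median of -0.24, and a link of Npc2 with them was not tested. Over the 15 alternatives the log2 fold change of Npc2 lay between -0.26 and -0.12. Its unadjusted p was under 0.05 in 1 of them, the edgeR fit without WT mouse 1 (adjusted p = 0.403). Npc1, the membrane partner of Npc2, was at 200, 222 and 177 CPM in WT and at 218, 195 and 225 CPM in Lpcat3KOMac mice, with a log2 fold change of 0.09 (SE 0.11) and overlapping groups. Their slopes on the hepatocyte mean were -0.04 for Npc2 and -0.01 for Npc1, and neither passed the test. Stard4, a soluble carrier that moves sterol between membranes and is itself a target of SREBP2, rose with that mean. It was at 50.3, 17.3 and 18.0 CPM in WT and at 26.6, 57.2 and 33.1 CPM in Lpcat3KOMac mice, with a slope of 0.43 (SE 0.07). Its log2 fold change was 0.45 (SE 0.53), and it was 0.07 without Lpcat3KOMac mouse 2 and 1.14 without WT mouse 1.

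Levels of different genes were compared on the RPKM scale, which divides by gene length. Npc2 was at 268 ± 20.1 in WT and 232 ± 11.2 in Lpcat3KOMac cells (SD, n = 3 each), the highest of the 27. By the mean of each genotype the lowest was Lss, lanosterol synthase, at 1.03 ± 0.60 and 1.16 ± 0.29 RPKM. This is a ranking of means and not of single mice, and Sqle, at 1.22 RPKM in WT, lay within the spread of Lss among WT mice. It also depends on gene length, as the lowest CPM in any library was that of Hsd17b7, at 2.12 CPM in WT mouse 3. Insig1 was at 23.4 ± 16.1 and 26.8 ± 5.71 RPKM, Insig2 at 21.5 ± 20.7 and 16.3 ± 2.68 RPKM, and Npc1 at 18.6 ± 2.11 and 19.8 ± 1.48 RPKM. Of the enzymes, Hmgcs1 was at 20.1 ± 13.3 and 20.97 ± 3.95 RPKM and Ebp, a sterol isomerase, at 18.7 ± 8.73 and 16.6 ± 4.26 RPKM, and the order among these 5 genes lay within the spread of the WT mice. Srebf2 was at 12.2 ± 1.31 RPKM in WT and 16.8 ± 1.40 RPKM in Lpcat3KOMac cells.

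With all libraries, 15 of the 27 members rose with the hepatocyte mean at an adjusted p under 0.05 (edgeR), and 0 did without WT mouse 1. The comparison of genotypes was therefore repeated with that mean in the fit and without the libraries that stood apart. With the mean in the fit, the median log2 fold change of the members was 0.10, with 19 of 27 above 0, and Srebf2 remained the one member at an unadjusted p under 0.05 and higher, where 4.12% of all genes were. Without WT mouse 1, 15 members were higher at an unadjusted p under 0.05 (edgeR), against 9.67% of all genes, and Npc2 was lower, against 2.63%. The median log2 fold change was then 0.67, with 24 of 27 above 0, and the smallest adjusted p of a member was 0.294. In the same comparison the 6 hepatocyte markers had a median log2 fold change of 1.91, and 5 of the 6 were higher at an unadjusted p under 0.05.

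Without both WT mouse 1 and Lpcat3KOMac mouse 2, an alternative chosen after the data were seen, 24 of 27 members had a log2 fold change above 0, with a median of 0.56 against -0.02 over all genes. Of the members, 9 were higher at an unadjusted p under 0.05 (edgeR), against 8.63% of all genes, and none passed the adjusted threshold. Lpcat3KOMac mice 1 and 3 were both above WT mice 2 and 3 for 16 members, of which 11 rose with the hepatocyte mean, and for 20.4% of all genes tested. The same 4 libraries still differed in hepatocyte transcripts: all 6 markers were higher in the Lpcat3KOMac mice, with a median log2 fold change of 1.37, and Alb was at 3131 and 3138 CPM against 1205 and 1319 CPM. The direction seen without these libraries and the amount of hepatocyte RNA therefore cannot be told apart. Srebf2 was again higher, with a log2 fold change of 0.44 (edgeR unadjusted p = 0.024).

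Of 30 further genes of sterol metabolism, none was at an unadjusted p under 0.05 between genotypes, none had groups without overlap, and 8 had a log2 fold change above 0, with a median of -0.03. The genes for SREBP2 processing and sterol sensing (7 genes, among them Mbtps1 and Erlin2) all had a log2 fold change below 0, between -0.20 and -0.0026. Over all 16134 genes tested, 9668 were below 0, with a median of -0.04. Soat1, which esterifies cholesterol, and Lipa, which frees it in the lysosome, differed by log2 fold changes of -0.02 (SE 0.18) and 0.06 (SE 0.12). With the hepatocyte mean, 10 of the 30 moved at an adjusted p under 0.05 (edgeR). Of all genes tested, 15.3% rose and 7.33% fell at that threshold, and 1.13% rose without WT mouse 1. Aacs, which activates acetoacetate in the cytosol, rose with a slope of 0.62, and Acat1, the mitochondrial thiolase, with a slope of 0.61. Gramd1a, a sterol carrier of the endoplasmic reticulum, was the one that fell, with a slope of -0.19. Acly, which makes cytosolic acetyl-CoA, was even, between 323 and 358 CPM in all 6 libraries.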

How the data were processed

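Liver F4/80-positive cells of 3 WT and 3 Lpcat3KOMac mice were analysed by poly-A RNA-seq. The authors deposited 1 table of raw read counts per mouse. The submitters' processing notes name Trimmomatic 0.36, STAR 2.5.2b, featureCounts of Subread 1.5.2 and GRCm38. The strand setting and the handling of multi-mapping reads are not given in the sources used here, and the study's methods state no test for these data.

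Counts were fitted with edgeR 4.0.16 (R 4.3.3; TMM, default filter with minimum count 10, robust quasi-likelihood test, genotype as the term), with Benjamini-Hochberg adjustment over the 16134 genes tested. Standard errors were derived from log2 fold changes and their F statistics. Log2 CPM used a prior count of 2, and RPKM the gene length in the tables. P-values of edgeR and DESeq2 weigh a difference or a slope against the spread between mice. Permutation p-values come from rearrangements of the 6 libraries. Slopes came from the same fit with the mean log2 CPM of 6 hepatocyte transcripts added. The fits were also run on simulated counts, with larger effects than the members had and the same dispersion for every gene. That run does not bear on small differences. The members and lists were chosen with earlier results of these data known. Values in every mouse were set to be given for members at an unadjusted p under 0.05, for those without overlap, and for Srebf2, Scap, Insig1, Insig2, Npc1 and Npc2; the other members with values in every mouse were chosen after these were seen. The slope readout and the fit without the 2 libraries highest in Alb were also chosen after seeing the data. Promoters are from RefSeq (GRCm38.p6). The authors' lipid and whole-liver measurements were not analysed here. Some genes of the further lists are counted but not reported here by name.

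Alternatives were DESeq2 size factors in edgeR, total counts, DESeq2 1.42.0, no filter, a minimum of 10 counts in each library, the replicate number as a block, the hepatocyte covariate, an offset for gene length, leaving out each mouse, and for the relation with hepatocyte transcripts a prior count of 0.5.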

Additional observations from a re-analysis of the deposited data

How the results depend on the processing

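Depth limited little here, as the lowest member had 97 counts in its lowest library and the spread between mice was the larger error. No member passed an adjusted p of 0.05 for genotype in any fit. Over all genes, edgeR called 0 genes (426 at an unadjusted p under 0.05) and DESeq2 called 12. At the unadjusted threshold 138 genes passed with the replicate block, 1421 with the hepatocyte covariate, 1767 without the 2 libraries highest in Alb, and 179 to 2028 with 1 mouse left out. The count of members higher at that threshold was 1 to 15 with 1 mouse left out (15 without WT mouse 1) and 9 without the 2 libraries; the count lower was 0 to 1. The median log2 fold change of the members was -0.063 to 0.67 with 1 mouse left out. The r of their mean with the hepatocyte mean was then 0.877 to 0.963. The count of members with a positive slope at an adjusted p under 0.05 (edgeR) was 0 to 15, lowest without WT mouse 1. In these fits 20 to 23 slopes were above 0, with median slopes of 0.19 to 0.36.

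The labels number the mice of both genotypes 1 to 3. Deviations of same-numbered mice from their genotype means had r of -0.30, -0.60 and 0.36. The labels do not say whether such mice shared more than a number. These values cannot decide it, as each deviation is from a mean of 3 mice. With the replicate number as a block, the median log2 fold change of the members was 0.24, with 22 of 27 above 0.

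Signs of small differences turned. Total counts gave Ggps1 0.064, Tm7sf2 0.054, Lbr 0.054, Hsd17b7 0.14, Sc5d 0.060 and Scap 0.051, so that 24 of 27 members were above 0 and the median over all genes moved from -0.04 to 0.06. The block gave Tm7sf2 0.026, Hsd17b7 0.98, Sc5d 0.71 and Insig2 0.031. The covariate gave Mvk -0.0094, Hsd17b7 0.31 and Sc5d 0.15. The length offset gave Ggps1 0.016. Without the 2 libraries highest in Alb, Tm7sf2 was 0.21, Hsd17b7 1.48, Ebp 0.059, Sc5d 1.24, Insig2 0.77 and Scap 0.072. When single mice were left out, the ranges were Acat2 -0.31 to 1.06, Hmgcs1 -0.26 to 0.74, Mvk -0.049 to 0.26, Fdps -0.48 to 1.21, Fdft1 -0.25 to 1.33, Ggps1 -0.059 to 0.06, Lss -0.066 to 0.77, Tm7sf2 -0.31 to 0.46, Lbr -0.097 to 0.12, Msmo1 -0.11 to 0.67, Nsdhl -0.074 to 0.44, Hsd17b7 -0.58 to 2.04, Ebp -0.39 to 0.28, Sc5d -0.53 to 1.64, Insig1 -0.076 to 0.93, Insig2 -0.76 to 0.78, Scap -0.15 to 0.069. Without a turn of sign they were Pmvk 0.053 to 0.42, Mvd 0.091 to 0.40, Idi1 0.20 to 1.16, Sqle 0.24 to 0.85, Cyp51 0.14 to 0.98, Dhcr7 0.055 to 0.37, Stard4 0.070 to 1.14 and Npc1 0.012 to 0.18. The cause of these turns was not tested. These 8 members, Srebf2 and Npc2 kept their sign in all 15 alternatives.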
